A study of Homo sapiens with 19 samples.

Results

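The Krüppel-like factors (KLF) are zinc finger transcription factors, and the 9 described here are KLF2, KLF3, KLF4, KLF6, KLF7, KLF9, KLF10, KLF11 and KLF13. They were taken as a named list from the 20015 protein-coding genes of GENCODE v44 (hg38) that were measured. For each gene and each library, the base pairs (bp) lying under deposited peaks within 10 kb either side of the transcription start site (TSS) were summed, and for KLF4 also within 300 kb either side. The windows are of equal length for all genes, so their coverage can be compared between genes. The peaks come from CUT&RUN, in which an antibody tethers a nuclease that cuts out the chromatin carrying a histone mark. The cells were MOLM-13, a human acute myeloid leukaemia line, sampled as a single line. One group received Corin at 0.1 µM for 24 h, a hybrid molecule aimed at the CoREST complex that blocks its demethylase, LSD1, together with its deacetylases. The other received the vehicle DMSO for 24 h, against which the labels list the same dose without saying what it refers to. Acetylation of histone H3 at lysine 27 (H3K27ac), and di- and trimethylation at lysine 4 (H3K4me2 and H3K4me3), were each measured in 2 Corin and 2 DMSO libraries, 12 in all. The libraries of the series with all-trans retinoic acid plus Corin, LSD1 and IgG were not analysed here.

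KLF proteins bind GC-rich and CACCC-type DNA through zinc fingers near their carboxy terminus, and differ in the cofactors that their amino-terminal parts recruit. KLF2, KLF4, KLF6 and KLF7 belong mainly to the members that can recruit acetyltransferases, KLF3 recruits the corepressor CtBP, and KLF9, KLF10, KLF11 and KLF13 recruit the corepressor SIN3A. In blood, KLF4 is known as a factor of monocyte differentiation and KLF2 as a factor of lymphocyte quiescence and trafficking. As for the marks, H3K4me3 sits at active and poised promoters, H3K4me2 at promoters and enhancers, and H3K27ac at active ones. LSD1 removes mono- and dimethylation from lysine 4, and histone deacetylases remove acetyl groups.

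The sequences below come from distal sites upstream of KLF4, the upstream block of KLF9, and the promoters of KLF2 and KLF9. These promoters were taken because they differ most in base composition among the members with an entry. The first 3 are the 300-base stretches, on the plus strand of hg38, that hold the most motif matches within their region, and the regions are the upstream ones with most bp covered in Corin. They lie at chr9:107749973-107750272 (an H3K4me2 region upstream of KLF4), chr9:107615552-107615851 (an H3K27ac region upstream of KLF4) and chr9:70418858-70419157 (an H3K27ac region upstream of KLF9). Capitals mark matches, on either strand, to short motifs of blood transcription factors: PU.1 (GAGGAAGT), C/EBP (TTGCNNAA), RUNX (TGTGGTT), AP-1 (TGANTCA) and GFI1 (AATCACNGC).
KLF4 distal H3K4me2 region: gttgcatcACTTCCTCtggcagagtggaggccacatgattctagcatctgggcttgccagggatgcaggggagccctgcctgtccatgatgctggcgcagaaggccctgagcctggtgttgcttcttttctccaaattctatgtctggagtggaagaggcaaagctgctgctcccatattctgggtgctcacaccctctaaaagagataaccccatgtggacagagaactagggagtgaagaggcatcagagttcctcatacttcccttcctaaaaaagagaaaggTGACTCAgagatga
KLF4 distal H3K27ac region: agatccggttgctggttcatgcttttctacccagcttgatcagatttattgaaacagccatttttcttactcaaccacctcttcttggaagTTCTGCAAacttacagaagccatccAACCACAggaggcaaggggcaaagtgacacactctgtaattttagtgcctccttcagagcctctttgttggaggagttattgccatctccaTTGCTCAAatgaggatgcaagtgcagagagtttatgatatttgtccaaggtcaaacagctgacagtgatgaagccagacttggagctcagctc
KLF9 upstream H3K27ac region: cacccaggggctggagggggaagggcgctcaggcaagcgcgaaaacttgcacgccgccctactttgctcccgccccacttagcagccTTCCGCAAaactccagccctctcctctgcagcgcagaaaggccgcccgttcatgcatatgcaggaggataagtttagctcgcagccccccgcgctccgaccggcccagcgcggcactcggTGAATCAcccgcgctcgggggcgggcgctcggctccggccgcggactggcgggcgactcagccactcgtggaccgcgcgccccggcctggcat
The other 2 are the 250 bases before the RefSeq start on the gene's own strand (GRCh38.p14), chr9:70414658-70414907 for KLF9 and chr19:16324576-16324825 for KLF2. Capitals there mark the GC box (GGGCGG) and the KLF-type CACCC motif (CCNCNCCC) on either strand, which can overlap each other.
KLF9 promoter: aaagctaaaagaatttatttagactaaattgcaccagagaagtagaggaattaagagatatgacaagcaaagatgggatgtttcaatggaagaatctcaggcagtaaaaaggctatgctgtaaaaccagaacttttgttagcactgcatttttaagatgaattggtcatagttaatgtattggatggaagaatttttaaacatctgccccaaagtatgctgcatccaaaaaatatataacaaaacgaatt
KLF2 promoter: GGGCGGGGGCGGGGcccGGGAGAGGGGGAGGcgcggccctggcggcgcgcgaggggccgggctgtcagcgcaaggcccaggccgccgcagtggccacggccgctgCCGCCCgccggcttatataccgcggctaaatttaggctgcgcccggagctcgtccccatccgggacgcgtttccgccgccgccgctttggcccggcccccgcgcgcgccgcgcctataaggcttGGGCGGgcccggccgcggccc
In the KLF4 stretch under H3K4me2 the capitals are a PU.1 match and an AP-1 match. The KLF4 stretch under H3K27ac holds a pair of C/EBP matches and a RUNX match, and the KLF9 stretch a C/EBP and an AP-1 match. Such matches are common: of windows as long as the first KLF4 region (2659 bp) centred on H3K4me2 union regions, 18.8% held the PU.1 letters and 55.4% the AP-1 letters. In windows as long as the second (3695 bp), centred on H3K27ac union regions, the C/EBP letters were in 83.2% and the RUNX letters in 48.9%. In such windows as long as the KLF9 region (1575 bp) the C/EBP letters were in 54.7% and the AP-1 letters in 39.9%. No GFI1 match was found in these 3 regions, against 8.53%, 11.7% and 5.01% of windows of the same lengths. A match of letters is a description and does not show that a factor binds.

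RefSeq's promoter table (300 bases around each start, 35116 promoters) held 7 of the 9 genes, and KLF3 and KLF10 were not matched. Within it KLF2 had 80.7% G and C, more than 97.9% of all promoters, and 6 GC box matches. KLF13 reached 78.3%, KLF11 77.3% and 75.3% at its 2 entries, KLF6 70.7% and KLF4 69%, all above the median of 58.7%. The 4 entries of KLF7 had 43%, 56.7%, 70% and 42.7%, 3 of them below the median. KLF9 stood at the other end with 32.7%, lower than all but 2.36% of promoters, and with no match to either motif. The GC box was found in 45.0% of all promoters and the KLF motif in 56.2%.

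In these libraries an H3K27ac list has 17599 to 34424 peaks, an H3K4me2 list 30896 to 41152 and an H3K4me3 list 11104 to 11883. The H3K27ac lists cover 26.1 and 20.1 Mb with Corin and 11.1 and 12.6 Mb with DMSO, so a gene with more acetylated bp in Corin is the common case. Covered lengths were 47.4 and 42.2 Mb with Corin and 33.4 and 36.6 Mb with DMSO in the H3K4me2 lists. In the H3K4me3 lists, in that order, they were 15.6, 15.2, 14.2 and 14.97 Mb. The labels give a minimum of 5000000 paired-end reads per library, and the depth of each library is otherwise unknown. Of the myeloid markers 8 of 9 (among them SPI1, CEBPA and MPO) were covered in all 4 H3K27ac lists, with 30326 to 59227 bp summed per library. T cell markers (4 of 4) and hepatocyte markers (2 of 2) had no H3K27ac peak in any list. Among B cell markers, CD79A was covered in all 4 H3K27ac lists, with 4701 and 5504 bp in Corin and 1657 and 626 bp in DMSO, whereas MS4A1 and PAX5 were at 0.

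Around their start sites, 5 of the 9 KLF genes had more H3K27ac coverage in both Corin libraries than in both DMSO libraries: KLF6, KLF7, KLF9, KLF10 and KLF13. None had less, and the other 4 overlapped or had no peak. Of the 9492 genes tested for H3K27ac, 6 of them members and 5 of those 6 higher, 60.6% were higher in this way and 0.727% lower. Of all 20015 genes measured, with those of little or no coverage included, 28.7% were higher and 0.345% lower. For H3K4me2 5 genes were higher (KLF2, KLF4, KLF7, KLF10 and KLF13) and 0 lower, beside 40.5% and 3.92% of the genes tested and 27.8% and 2.69% of those measured. For H3K4me3 4 were higher (KLF4, KLF6, KLF9 and KLF10) and 2 lower (KLF3 and KLF11), beside 26.4% and 8.49% of the genes tested and 14.4% and 4.63% of those measured. KLF10 was the only member whose Corin values exceeded its DMSO values for all 3 marks, at the windows used here.

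None of these differences passed the test. In simulated data made from these libraries the same test called none of the H3K27ac changes, so a missing call does not show unchanged coverage. With limma on log2(bp + 200) across genes covered in at least 2 of the 4 libraries, 0 of the members and 0 of all genes (0% of 9492, 13735 and 10916 genes for H3K27ac, H3K4me2 and H3K4me3) had an adjusted p under 0.05 in either direction. For H3K27ac this count over all genes rested on the libraries used, since 720 genes were called higher and 2 lower without Corin replicate 1, and 723 higher and 1 lower without Corin replicate 2. At an unadjusted p under 0.05 there were 2, 2 and 3 members, and over all genes 2343 higher and 9 lower (H3K27ac), 1940 and 23 (H3K4me2), and 631 and 116 (H3K4me3). The members' median log2 difference was 0.89 for H3K27ac over the 6 that could be fitted, against 0.70 over all genes. For H3K4me2 it was 0.14 against 0.14, and for H3K4me3 0.01 against 0.05, over all 9. The labels do not say that replicates are separate cultures, so p-values measure only the spread between these libraries. An exact permutation test of 2 against 2 libraries cannot give a two-sided p below 0.333.

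**Figure D1:**
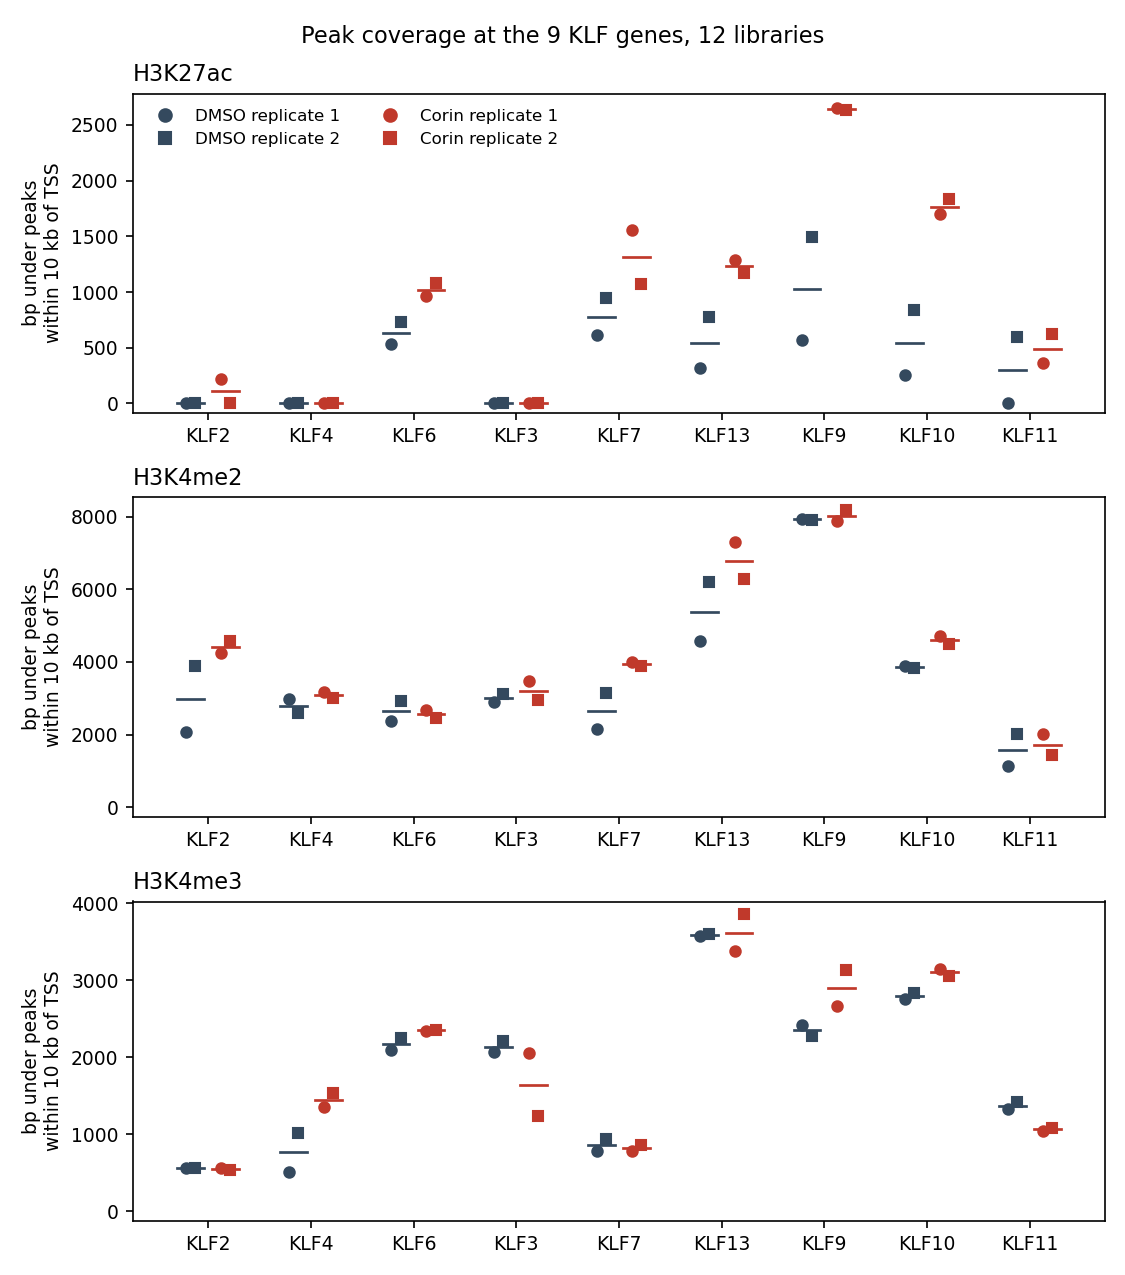
Coverage by peaks (bp, vertical axis) within 10 kb of the TSS of each KLF gene, 1 panel per mark; points are libraries, coloured by treatment and shaped by replicate number, and the short line is the mean of 2 libraries. KLF9 and KLF10 stand apart most for H3K27ac (2650 and 2630 bp against 566 and 1490 for KLF9), KLF4 stands out for H3K4me3, and KLF2, KLF3 and KLF4 lie at or near 0 for H3K27ac.

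With the vehicle alone the members differed widely. In the DMSO libraries KLF9 led H3K4me2 with 7922 ± 12.7 bp (SD, n = 2), more than 98.9% of all genes, followed by KLF13 (5384 ± 1157) and KLF10 (3858 ± 44.5), each apart from the next in order. KLF3, KLF2, KLF4, KLF7 and KLF6 came next, from 3014 down to 2651 bp, and neighbours in this order overlapped. KLF11 came last at 1574 ± 611 bp. KLF13 led H3K4me3 with 3589 ± 13.4 bp, above KLF10 (2792 ± 55.9) and KLF9 (2352 ± 99.0). KLF6 (2171) and KLF3 (2139) overlapped, KLF11 (1375) stood apart from both sides, and KLF7 (862), KLF4 (769) and KLF2 (566) overlapped in turn. For H3K27ac the order ran from KLF9 (1028 bp) through KLF7, KLF6, KLF10 and KLF13 to KLF11 (297), and every neighbouring pair overlapped.

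Some of the genes had start regions without an H3K27ac peak. All 9 genes had H3K4me3 in all 4 lists, yet KLF3 and KLF4 had no H3K27ac peak in any list and KLF2 had none in DMSO. Of 10374 genes with H3K4me3 in all 4 lists, 8.9% had no H3K27ac peak in any list and 20.3% had none in either DMSO list.

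KLF2 (chr19:16324826-16328685, plus strand) is the member known for holding lymphocytes in quiescence and for its response to blood flow in endothelium. No list had an H3K27ac peak at its TSS, and the single peak in its window was 222 bp in Corin replicate 1, at -8634 bp from the TSS in the divergent transcript KLF2-DT, with a score higher than only 3.10% of that list. H3K4me2 covered 4246 and 4586 bp in Corin against 2072 and 3877 bp in DMSO. The Corin libraries lay above both DMSO libraries, but DMSO replicate 1 and 2 differed by more than the gap between the groups (log2 difference 0.60, SE 0.28, limma adjusted p = 0.424). The difference was 0.18 without DMSO replicate 1 and 1.02 without DMSO replicate 2. The H3K4me2 peak at the TSS was 1208 bp wide in DMSO replicate 1 and 2411 to 2514 bp in the other 3. H3K4me3 was narrow and steady, at 562 and 533 bp with Corin and 569 and 562 bp with DMSO, and the groups overlapped.

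KLF4 (chr9:107484852-107490482, minus strand) is one of the reprogramming factors and promotes monocytic differentiation. Its H3K4me3 coverage was 1353 and 1539 bp in Corin against 514 and 1024 bp in DMSO, with no overlap. The log2 difference of 0.81 (SE 0.28, unadjusted p = 0.0348) was exceeded by 2.14% of genes, yet limma's adjusted p was 0.661. It was 0.43 without DMSO replicate 1 and 1.20 without DMSO replicate 2. Most of this coverage was a region at chr9:107488477-107489789, which includes the TSS of the canonical transcript 713 bp inside the outermost start, with 1154 and 1278 bp in Corin and 514 and 546 bp in DMSO. A second region over the outermost TSS, at chr9:107490088-107490591, held 199 and 261 bp in Corin, 0 in DMSO replicate 1 and 478 in DMSO replicate 2, so it did not separate the groups. H3K4me2 covered 3170 and 3005 bp in Corin and 2992 and 2585 bp in DMSO, a difference of 0.14 (SE 0.13) beside a median of 0.14 over all genes. This difference was 0.24 without DMSO replicate 1, 0.042 without DMSO replicate 2 and 0.0073 within 5 kb of the TSS. H3K27ac was at 0 in all 4 libraries.

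KLF6 (chr10:3775996-3785281, minus strand), a ubiquitous member with a known role as a tumour suppressor, had a narrow H3K27ac peak just upstream of its TSS in all 4 libraries. Its H3K27ac coverage was 965 and 1077 bp in Corin and 530 and 730 bp in DMSO, without overlap (log2 difference 0.57, SE 0.40, limma adjusted p = 0.390), but the difference was -0.11 when every list was reduced to its 17599 highest-scoring peaks. H3K4me2 overlapped between groups, at 2682 and 2447 against 2382 and 2919 bp. H3K4me3 was 2344 and 2358 bp in Corin and 2092 and 2249 bp in DMSO, a small separation of 0.11 on the log2 scale (0.059 without DMSO replicate 1, and 0.19 with peaks scoring at least 100).

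KLF7 (chr2:207074137-207173856, minus strand) is best known from neuronal development. Its peaks lie 5753 bp and more inside the gene record, around the TSS of its canonical transcript, which is 7908 bp downstream of the outermost start and close to the start of the long non-coding RNA MYOSLID. H3K27ac covered 1561 and 1069 bp in Corin and 612 and 947 bp in DMSO (0.63, SE 0.39, limma adjusted p = 0.343). H3K4me2 covered 3997 and 3901 bp in Corin and 2165 and 3142 bp in DMSO (0.56, SE 0.19, limma adjusted p = 0.284, the smallest of the members for this mark). The H3K4me2 difference was 0.31 without DMSO replicate 1 and 0.81 without DMSO replicate 2. Both marks were separated between the groups, whereas H3K4me3 was not, at 789 and 866 bp against 786 and 937 bp.

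KLF3 (chr4:38664197-38701517, plus strand), the CtBP-binding repressor, was 1 of the 2 members with less H3K4me3 in Corin. Its values were 2051 and 1242 bp in Corin and 2067 and 2211 bp in DMSO. Corin replicate 1 and DMSO replicate 1 were almost level, and Corin replicate 2 alone was low, with a peak of 850 bp over the TSS where the others had 2051 to 2211 bp (log2 difference -0.38, SE 0.22, limma adjusted p = 0.844). Without Corin replicate 2 the difference was -0.05, and without Corin replicate 1 it was -0.70. H3K4me2 overlapped, at 3477 and 2953 against 2897 and 3130 bp, and H3K27ac was at 0 throughout. The window is shared with the antisense transcript KLF3-AS1, which starts 729 bp inside the gene, and peaks carry no strand.

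KLF9 (chr9:70384604-70414657, minus strand), a gene known to respond to glucocorticoid and thyroid hormone, had the most H3K4me2 coverage of the 9 members. H3K4me2 covered 7869 and 8173 bp in Corin and 7931 and 7913 bp in DMSO, the same within the spread of the libraries (0.02). H3K27ac covered 2650 and 2630 bp in Corin and 566 and 1490 bp in DMSO. The groups did not overlap, and the log2 difference was 1.32 (SE 0.43, unadjusted p = 0.0301, limma adjusted p = 0.160), larger than in 79.0% of genes.

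The acetylated bp of KLF9 lay at its TSS, in an upstream block where H3K4me2 was present in all 4 libraries, and, in Corin replicate 1 alone, in a peak of 269 bp that begins 8162 bp inside the gene. Next to the TSS, at chr9:70413111-70414605, H3K27ac covered 1093 and 436 bp in Corin and 361 and 0 bp in DMSO. The region at chr9:70418441-70420015, from which the KLF9 stretch above is taken, had 1288 and 895 bp of H3K27ac in Corin and 205 and 584 bp in DMSO. It begins at -3784 bp from the TSS, within the long non-coding gene ENSG00000289159. A second H3K27ac region beside it, at chr9:70420212-70421581, appeared only in the libraries numbered 2, with 1299 bp in Corin and 906 bp in DMSO. Over the whole upstream block H3K27ac overlapped between groups, with 1288 bp in Corin replicate 1 below 1490 bp in DMSO replicate 2. H3K4me3 at KLF9 was 2665 and 3134 bp in Corin and 2422 and 2282 bp in DMSO (0.28, limma adjusted p = 0.686, and 0.17 without Corin replicate 2). At the TSS itself the H3K4me3 region overlapped between groups (2216 and 2492 against 2422 and 2083 bp), and the separation came from the upstream block, with 449 and 642 bp in Corin and 0 and 199 bp in DMSO.

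KLF10 (chr8:102648784-102655725, minus strand), the TGF-beta-inducible early gene, had the largest H3K27ac difference of the members on the log2 scale. H3K27ac covered 1697 and 1831 bp in Corin and 256 and 835 bp in DMSO, apart in the groups (log2 difference 1.51, SE 0.50, unadjusted p = 0.0318, limma adjusted p = 0.163), and 14.6% of genes had a larger one. The body of the gene close to the TSS held most of it, with 1385 and 1274 bp in Corin and 256 and 835 bp in DMSO. Over the TSS, at chr8:102655474-102656145, lay the single region within 10 kb of any member that was gained, meaning present in both Corin libraries and neither DMSO library, with 312 and 557 bp. No region within 10 kb of a member was lost. Of all H3K27ac union regions, made by merging the 4 lists, 11.5% were gained and 0.18% lost.

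The other marks of KLF10 differed less. H3K4me2 covered 4721 and 4491 bp in Corin and 3889 and 3826 bp in DMSO (0.24), and H3K4me3 3145 and 3063 bp in Corin and 2752 and 2831 bp in DMSO (0.14). Both were separated between the groups. By the authors' score the H3K4me2 peak over the KLF10 TSS ranked above 98.5% to 99.7% of the peaks of its list in the 4 libraries, the highest ranks of the members with a peak there.

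KLF11 (chr2:10042849-10054836, plus strand), another TGF-beta-inducible member, was the second with less H3K4me3 in Corin, at 1045 and 1085 bp against 1335 and 1414 bp in DMSO. These groups did not overlap (log2 difference -0.32, SE 0.11, unadjusted p = 0.0340, limma adjusted p = 0.649). Just beyond the TSS of the canonical transcript, which is 701 bp downstream of the outermost start, each DMSO library had 1 peak, 1070 and 1059 bp wide, where each Corin library had a pair of narrower ones, of at most 432 and 425 bp. H3K27ac overlapped, at 360 and 622 bp in Corin and 0 and 593 bp in DMSO, and so did H3K4me2, at 2012 and 1429 against 1142 and 2006 bp. DMSO replicate 1 was the lowest library for both.

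KLF13 (chr15:31326835-31435665, plus strand), known as an activator of the chemokine gene CCL5 in T lymphocytes, showed H3K27ac of 1287 and 1172 bp in Corin and 318 and 772 bp in DMSO. The groups did not overlap, with a log2 difference of 1.01 (SE 0.48, limma adjusted p = 0.263). In all 4 libraries the peak lay just upstream of the TSS, in a region at chr15:31325471-31326746 (955 and 1172 bp against 318 and 772 bp). H3K4me2 was 7297 and 6273 bp in Corin and 4566 and 6202 bp in DMSO, where Corin replicate 2 and DMSO replicate 2 were almost level (0.33, and 0.12 without DMSO replicate 1 or 0.55 without DMSO replicate 2). H3K4me3, in DMSO the most of the 9 members, overlapped at 3379 and 3857 against 3579 and 3598 bp.

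**Figure D2:**
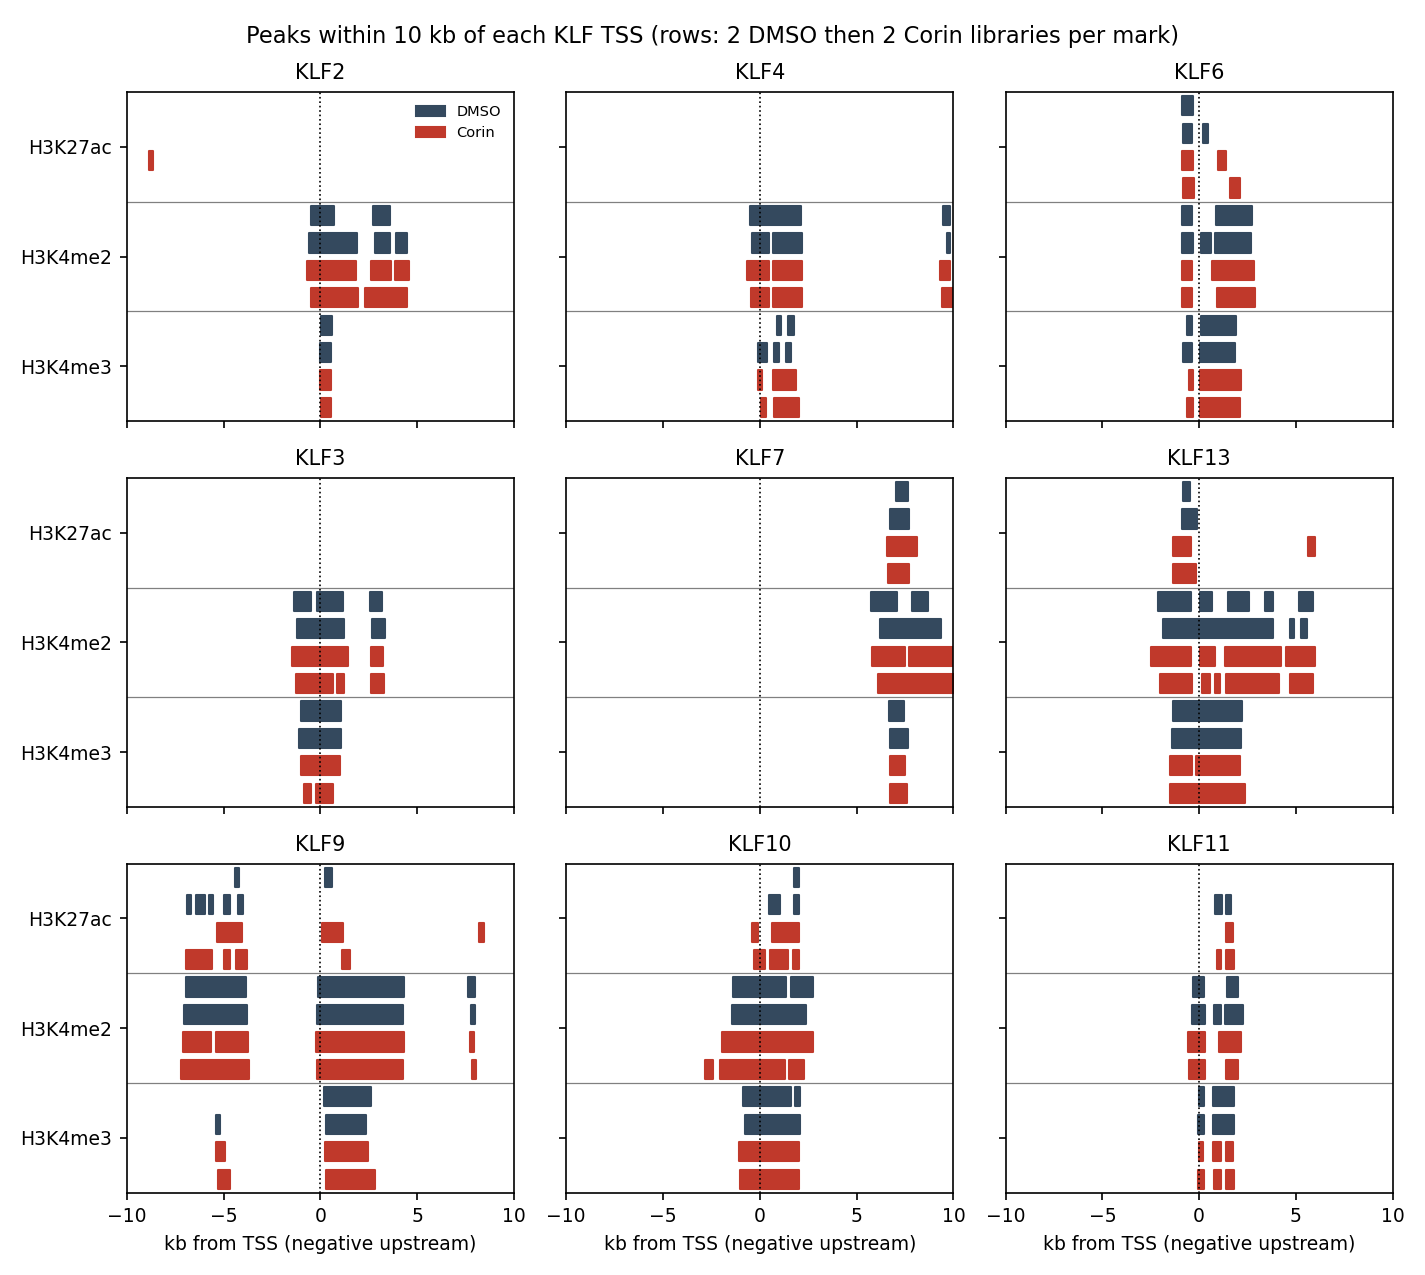
Position of every deposited peak within 10 kb of the 9 TSSs (horizontal axis in kb, negative upstream, oriented by the gene's strand); within each mark the rows are DMSO replicates 1 and 2, then Corin replicates 1 and 2. The H3K27ac rows are empty for KLF3 and KLF4, KLF7 peaks lie inside the gene record, and KLF9 has an upstream block of its own. H3K27ac in this block did not separate the groups, with 1288 bp in Corin replicate 1 and 1490 bp in DMSO replicate 2.

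**Figure D3:**
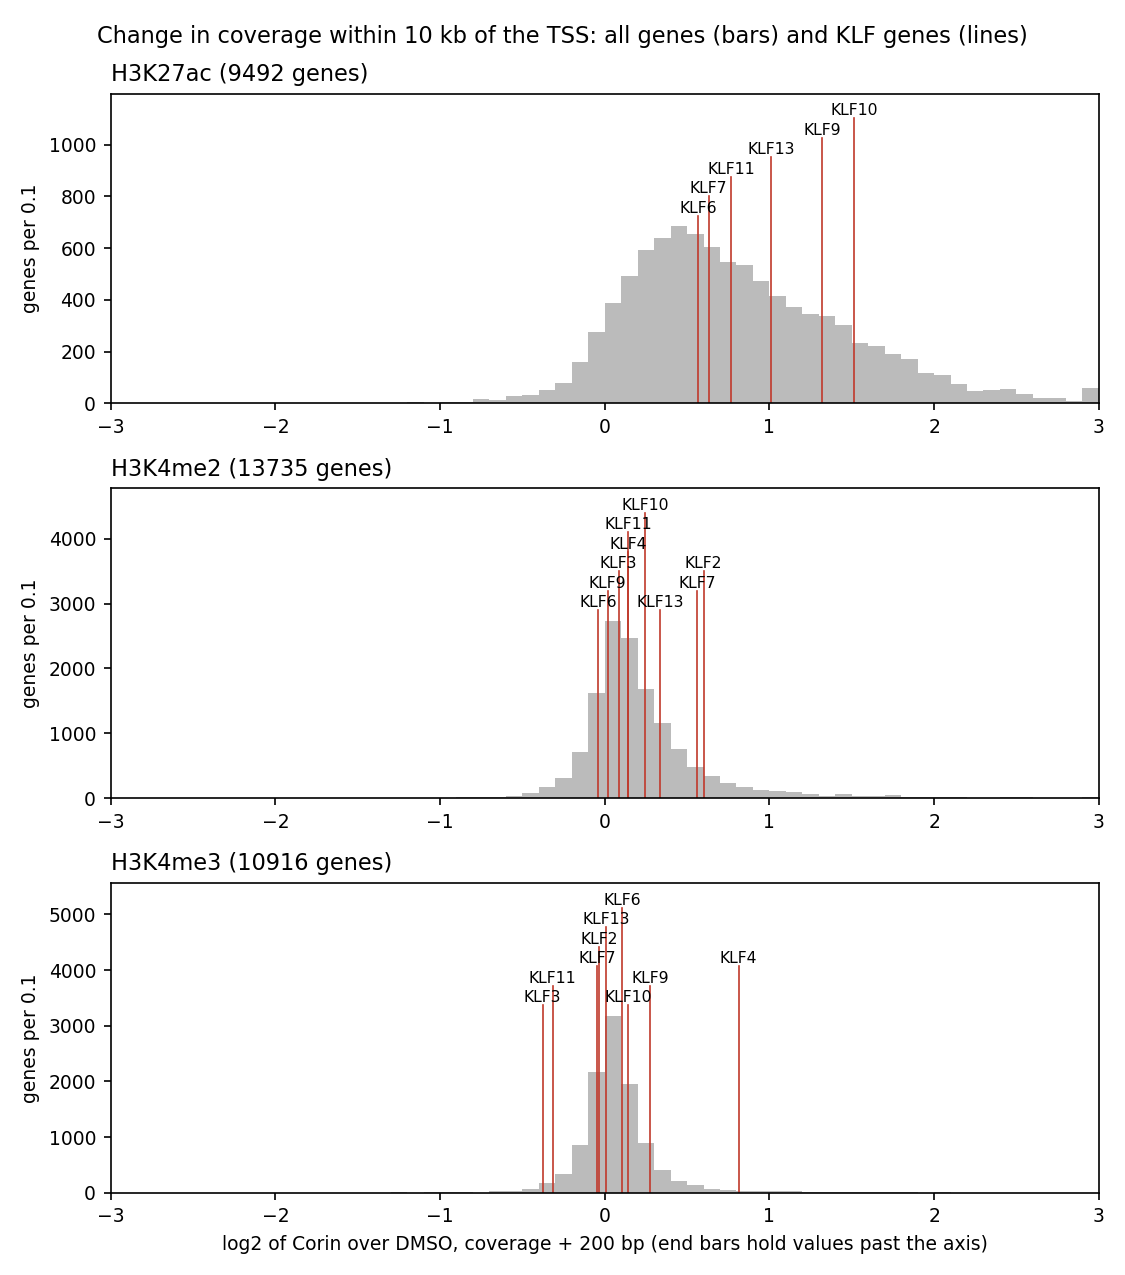
Distribution over all genes tested of the log2 difference in coverage, Corin minus DMSO (bars of 0.1, horizontal axis log2 of bp + 200), with the members as red lines at their own value. KLF10 at 1.51 and KLF9 at 1.32 lie in the upper part of the H3K27ac distribution, and KLF4 at 0.81 and KLF3 at -0.38 lie near the ends for H3K4me3; genes covered in fewer than 2 libraries (KLF2, KLF3 and KLF4 for H3K27ac) have no line.

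DMSO replicate 1 was the lowest library in all 5 members with separated H3K27ac, and its list was the shortest (17599 peaks). With every H3K27ac list reduced to that number of top-scoring peaks, the median difference of all genes was 0.37 in place of 0.70. KLF7, KLF9, KLF10 and KLF13 remained separated and KLF6 did not, and of the 8331 genes then tested 40.5% were higher and 4.02% lower without overlap. Without DMSO replicate 1 the H3K27ac difference of KLF10 was 0.92, that of KLF9 0.75, that of KLF13 0.56 and that of KLF7 0.38. Without DMSO replicate 2 they were 2.11, 1.89, 1.46 and 0.88, and none passed the test either way.

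The neighbourhood of KLF4 gave a different picture from its start site. In the 300 kb either side of the TSS, H3K27ac covered 10583 and 6145 bp in Corin and 2500 and 2298 bp in DMSO, although none of it lay within 10 kb of the TSS. H3K4me2 covered 17328 and 15297 bp in Corin and 10028 and 10172 bp in DMSO. For both marks the 2 DMSO libraries were close to each other and both Corin libraries lay far above them. H3K27ac rose by 1.67 on the log2 scale (SE 0.40, 3.18-fold, limma adjusted p = 0.000329) and H3K4me2 by 0.68 (SE 0.17, 1.60-fold, limma adjusted p = 0.00177). The H3K4me2 value includes a region 259 kb upstream that was known from earlier results on these libraries, and without it the difference was 0.43, close to the threshold (limma adjusted p = 0.0497, a setting added after the data were seen).

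In windows of this size the same call was made for 62.3% (H3K27ac) and 28.6% (H3K4me2) of all genes, 87.6% and 76.5% were higher without overlap, and the medians were 0.95 and 0.29. KLF4 stood in the upper part of both distributions: 8.09% of genes had a larger difference for H3K27ac and 7.52% for H3K4me2. H3K4me3 covered 3930 and 3590 bp in Corin against 3029 and 2589 bp in DMSO, a difference of 0.40 (SE 0.12) exceeded by 2.51% of genes. It did not pass the test (limma adjusted p = 0.273), a call that 0.0888% of genes reached in the higher direction, while 39.3% were higher without overlap. Without the 10 kb next to the TSS the H3K4me3 difference was 0.19 (limma adjusted p = 0.743), and the other H3K4me3 site, the RAD23B promoter, overlapped between groups (2577 and 2051 against 2515 and 1565 bp). The exact permutation p was 0.333 for each mark, and the windows of neighbouring genes overlap. In the fits for H3K27ac and H3K4me2 limma used 1 shared spread for all genes of like coverage, and the H3K27ac call was lost without Corin replicate 1 (1.29, adjusted p = 0.221) or Corin replicate 2 (2.05, adjusted p = 0.104), and with no filter on low coverage (adjusted p = 0.0671). Nearly every other gene lost it too: the 11415 genes called higher for H3K27ac became 0 without either Corin library and 47 with no filter. The H3K27ac difference was 3.26 (adjusted p = 0.0192) with peaks scoring at least 100 and 1.14 (adjusted p = 0.0224) at a matched number of peaks. The H3K4me2 call was lost without Corin replicate 1 (0.59, adjusted p = 0.0914), with a replicate block (adjusted p = 0.0793) and with no filter (adjusted p = 0.120). The 5463 genes called higher for H3K4me2 became 744, 765 and 20 under these settings.

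Both marks rose upstream of KLF4, on the side that holds no other protein-coding TSS within this distance. There H3K27ac covered 7350 and 4517 bp in Corin and 1549 and 1486 bp in DMSO (1.80, SE 0.40, limma adjusted p = 0.0111). H3K4me2 covered 9463 and 8122 bp in Corin and 3013 and 3578 bp in DMSO (1.36, SE 0.20, limma adjusted p = 2.52e-09), and 2.23% of genes had a larger difference on their upstream side. This H3K4me2 value includes the same region known beforehand, and without it the upstream difference was 0.88 (limma adjusted p = 0.000619), exceeded by 6.71% of genes. Among all genes 42.3% and 27.6% were called higher in the upstream window. In the H3K4me2 fit for this window limma used a spread shared by all genes of like coverage. The exact permutation p was 0.333 for both marks. Downstream, where the window holds RAD23B, a DNA repair gene, and the non-coding LINC01509, H3K4me2 was 7864 and 7174 bp against 7014 and 6593 bp (0.14, limma adjusted p = 0.594). Downstream H3K27ac was 3233 and 1628 bp against 951 and 812 bp (1.21, limma adjusted p = 0.0727). The split by side was added after the data were seen, and the difference between the sides was not tested. For the upstream window alone, leaving out a library, dropping the filter and adding a replicate block were not run.

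Joining peaks of the 3 marks less than 1 kb apart gave 17 sites within 300 kb of KLF4. Of these 15 carried H3K4me2 in at least 1 library, 9 carried H3K27ac and 2 carried H3K4me3, namely the starts of KLF4 and RAD23B.

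The largest acetylated site was 121 kb upstream, at chr9:107611635-107616896, and had H3K27ac in all 4 libraries. H3K27ac there was 4401 and 3056 bp in Corin and 938 and 1486 bp in DMSO, and H3K4me2 was 1214 and 640 bp against 388 and 452 bp. Both marks were apart between the groups. It includes the 3695 bp region at chr9:107612242-107615936 from which the second KLF4 stretch is printed (3581, 2774, 938 and 1486 bp in the same order), and beside it the single gained H3K27ac region of the neighbourhood, at chr9:107611635-107612101, with 317 and 282 bp. Without this site the upstream H3K27ac coverage was 2949 and 1461 bp in Corin and 611 and 0 bp in DMSO, still apart.

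The widest gained H3K4me2 region lay 259 kb upstream at chr9:107749767-107752425, where Corin gave 2625 and 2490 bp and both DMSO libraries 0. No list of H3K27ac or H3K4me3 had a peak there. Since it was known from earlier results on these libraries, it is not independent support for the upstream increase, and without it H3K4me2 upstream was 6838 and 5632 bp in Corin and 3013 and 3578 bp in DMSO. The groups remained apart. The other gained H3K4me2 region was a small one of 290 bp at 277 kb downstream, chr9:107213677-107213966, with 267 and 290 bp. Within 300 kb, 2 of 18 H3K4me2 regions, 1 of 17 H3K27ac regions and 0 of 3 H3K4me3 regions were gained and none was lost, while 9.64%, 11.5% and 1.49% of all regions of these marks were gained and 0.158%, 0.18% and 0.289% lost.

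Other upstream sites already had H3K4me2 in DMSO. A further 3 had it in a single Corin library, with 534 bp in Corin replicate 2 at 265 kb and 193 and 354 bp in Corin replicate 1 at 105 and 26.8 kb. The site 184 kb upstream had 1496 and 1337 bp in Corin and 576 and 843 bp in DMSO, and the one 57.8 kb upstream had 990 and 1064 bp against 708 and 479 bp. At 270 kb upstream the values were 1232 and 1246 bp against 409 and 1093 bp, where DMSO replicate 1 alone was low. At 96.8 kb upstream the groups overlapped, at 690 and 359 against 427 and 293 bp. Counted on both sides of KLF4, 10 H3K4me2 regions were found in all 4 lists. Of these 5 were higher in both Corin libraries and 1, at RAD23B downstream, was lower. Of all 23578 such regions in the genome 42.2% were higher and 4.73% lower. Upstream H3K27ac was less regular. It was seen in a single Corin library at 270 kb (994 bp in replicate 2) and at 96.8 kb (269 bp in replicate 1). At 184 and 193 kb it was seen in the libraries numbered 1, with 1181 and 1072 bp in Corin and 240 and 371 bp in DMSO, and not in those numbered 2. The 193 kb site had no H3K4me2 peak in any list. At 57.8 kb the Corin peaks of 427 and 467 bp did not overlap each other, so no shared region was gained.

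On the other side, at 9.29 kb downstream and past the end of the gene, H3K4me2 was 552 and 754 bp in Corin and 345 and 203 bp in DMSO. At 23.9 kb it was 1380 and 1069 bp against 1153 and 1069 bp, and the groups were level in their lower libraries. The RAD23B promoter had H3K4me2 of 3242 and 3079 bp in Corin and 3375 and 3358 bp in DMSO, with Corin below DMSO, and H3K27ac of 1986 and 1291 bp against 951 and 812 bp. At 166 kb downstream H3K27ac was 355 and 337 bp in Corin and 0 in DMSO, in Corin peaks that did not overlap each other. At 200 kb Corin replicate 1 alone had peaks, with 892 bp of H3K27ac and 475 bp of H3K4me2.

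**Figure D4:**
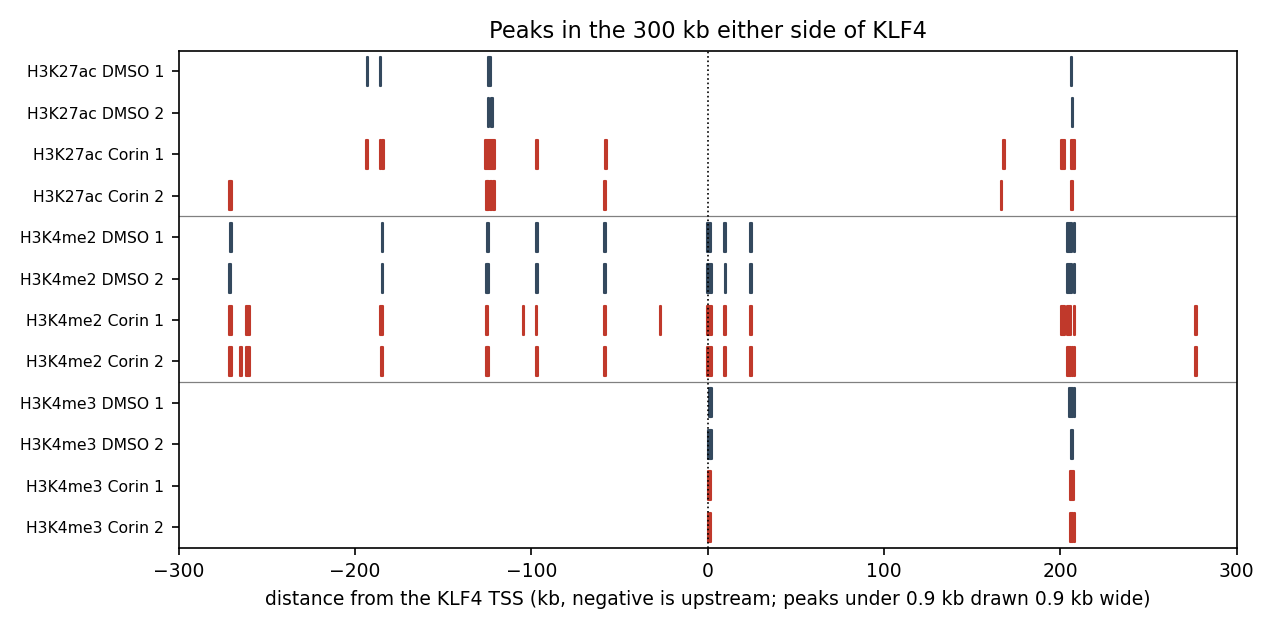
Peaks of the 12 libraries in the 300 kb either side of the KLF4 TSS (horizontal axis in kb, negative upstream; short peaks are drawn 0.9 kb wide so that they can be seen), DMSO in blue and Corin in red. Both Corin H3K4me2 rows show the block near -259 kb that both DMSO rows lack, the H3K27ac block near -121 kb is present in all 4 rows and wider in Corin (4401 and 3056 bp against 938 and 1486 bp), and no H3K27ac row has a peak at the TSS.

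Related genes were read from lists named with the study's results known, and none of their members passed limma's threshold for any mark. Their counts without overlap are over all members of a list, fitted or not, and so stand beside the shares of all genes measured. For H3K27ac these are 28.7% higher and 0.345% lower, for H3K4me2 27.8% higher and 2.69% lower, and for H3K4me3 14.4% higher and 4.63% lower. Among the genes tested, with which a count over the fitted members compares, they are 60.6% and 0.727%, 40.5% and 3.92%, and 26.4% and 8.49%. Nothing particular to a list is read from these counts. Of the other 8 KLF genes, 6 had no H3K27ac peak in any list, and KLF16 and KLF1 were the others. KLF16, of the SIN3A-binding group, was higher for H3K27ac at 7803 and 7228 bp against 3334 and 6427 bp. KLF1, the erythroid factor, had no overlap for H3K4me2 (5208 and 5135 against 3032 and 3702 bp) and for H3K4me3 (1921 and 1571 against 1210 and 1099 bp). The SP genes, which share the zinc finger type, had 1 of 9 higher for H3K27ac (4 fitted), 3 higher and 1 lower for H3K4me2 (8 fitted), and 2 higher for H3K4me3 (6 fitted). SP1 was higher for all 3 marks, with H3K27ac of 6227 and 4159 bp against 2881 and 3780 bp.

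The cofactor genes had 5 of 8 higher and 0 lower for H3K27ac (6 fitted), 1 higher and 2 lower for H3K4me2 (8 fitted), and 1 higher and 6 lower for H3K4me3 (8 fitted). Their medians were 0.02 against 0.14 over all genes for H3K4me2 and -0.16 against 0.05 for H3K4me3. Among them KAT2B, an acetyltransferase, had H3K4me3 of 1336 and 1442 bp in Corin and 1869 and 1636 bp in DMSO, and H3K27ac of 230 and 413 bp in Corin and 0 in DMSO. CREBBP, an acetyltransferase too, had H3K4me3 of 1870 and 1562 bp against 2036 and 2150 bp and no H3K27ac peak. The MAPK7 kinase pathway and MEF2 genes, which act upstream of KLF2 and KLF4, had 4 of 5 higher for H3K27ac and for H3K4me3 (4 fitted each) and 2 for H3K4me2 (5 fitted), with an H3K4me3 median of 0.28 over the 4 fitted against 0.05 over all genes. MEF2D had 8050 and 8216 bp of H3K4me3 in Corin and 6471 and 6559 bp in DMSO (0.31, SE 0.05, limma adjusted p = 0.511). MEF2C, the fifth gene, had no H3K4me3 peak.

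Genes known as KLF2 targets in lymphocytes and endothelium had 2 of 6 higher for H3K27ac (2 fitted), 4 for H3K4me2 (6 fitted) and 1 for H3K4me3 (1 fitted), and 0 lower. ITGB7, an integrin of lymphocyte homing, had 851 and 577 bp of H3K27ac in Corin and 0 in both DMSO libraries. Its H3K4me2 was 4860 and 4428 bp against 2433 and 2939 bp (0.75, SE 0.13, limma adjusted p = 0.132). THBD, which encodes thrombomodulin, had 2414 and 2938 bp of H3K27ac in Corin and 859 and 1187 bp in DMSO. S1PR1, CCR7 and NOS3 had no H3K27ac peak in any list. The genes of these lists that are mentioned by name were picked for their values.

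For each member the protein-coding gene with the most similar coverage over the 12 libraries, by mean absolute difference, was also found. KLF4 was closest to TMEM231 (130 bp per library, at mean coverages of 1349 and 1402 bp), KLF3 to ZHX2 (137 bp), KLF6 to DXO (139 bp) and KLF11 to ABCC10 (145 bp). KLF2 was closest to PYY (195 bp), KLF10 to NDUFA2 (196 bp), KLF7 to TSPAN14 (214 bp) and KLF13 to IMP3 (285 bp). KLF9 had the loosest match, BHLHE40 at 497 bp. No KLF gene was the closest gene of another.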

How the data were processed

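CUT&RUN peak lists of 12 MOLM-13 libraries were used. Per the submitters' processing notes, Trim Galore, Bowtie2, Picard and MACS2 and the builds GRCh38 and hg38 were named, with no role or version; the calling threshold and any control are not given in the sources used here. The score deposited by the authors for each peak is at least 50 and its definition is not given in the sources used here, so it served for ranking and filtering inside 1 list at a time. The lists are 1 per library and hold no counts, so coverage depends on how much was called in each, and read depth per library is unknown.

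From the lists, bp covered within 10 kb of the outermost TSS of each GENCODE v44 protein-coding gene (300 kb for KLF4) was summed per library. For each mark, log2(bp + 200) was fitted with limma 3.58.1 (R 4.3.3) with a mean-variance trend, without a replicate term, over genes covered in at least 2 of 4 libraries, with Benjamini-Hochberg adjustment over all genes and a threshold of 0.05. A gene was called higher or lower without overlap when both Corin libraries lay above or below both DMSO libraries. The fit was tested on simulated data made from these libraries, where it returned the direction of nearly all changed genes but called none of the H3K27ac changes and only some of those in the other marks. Regions were made by merging the 4 lists of a mark. Coverage of neighbouring windows can overlap. Alternatives were a matched number of peaks, a score of at least 100, pseudocounts of 50 and 1000 bp, no filter, no trend, a replicate term, windows of 5 and 25 kb, the canonical TSS, regions covered by at least 50%, and each library left out.

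The members and gene lists were chosen with earlier results of these data known. The genes named are the 9 members, genes starting within their windows, the gene of most similar coverage to each, list members past the threshold (none was), and some list members picked after their values were seen. Some members of the marker and gene lists are not reported here by name.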

Additional observations from a re-analysis of the deposited data

How the results depend on the processing

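The KLF4 neighbourhood calls depended on the settings. For H3K27ac over 300 kb the log2 difference of 1.67 kept its size without the filter on low coverage but lost the call (limma adjusted p = 0.0671). It was 1.21 on the downstream side alone (adjusted p = 0.0727), a setting added after the data were seen, and ranged from 1.29 to 2.05 as each library was left out. It was 3.26 (adjusted p = 0.0192) with peaks scoring at least 100 and 1.14 (adjusted p = 0.0224) at a matched number of peaks. The H3K4me2 difference of 0.68 lost its call without the filter (0.68, adjusted p = 0.120), with a replicate block (0.68, adjusted p = 0.0793) and downstream alone (0.14), was 0.43 without the region 259 kb upstream (adjusted p = 0.0497), and ranged from 0.59 to 0.77 as each library was left out. A lone library of a treatment was assumed there to vary like the others. Members with higher H3K4me2 numbered 3 in windows of 5 kb and 5 to 8 as each library was left out, and those with lower H3K4me2 numbered 0 to 1. The share of all genes tested moved with them, from 40.5% higher to 36.1% in windows of 5 kb and to between 48.2% and 67.8% as each library was left out, with 7.30% to 21.2% lower. Gained H3K27ac regions within 10 kb of the members fell from 1 to 0 at a matched number of peaks, where those within 300 kb of KLF4 went from 1 to 0 for H3K27ac and from 2 to 1 for H3K4me2, and the genome's gained share to 4.49% and 3.91%. Requiring at least 50% coverage gave 3 (H3K27ac), 4 (H3K4me2) and 1 (H3K4me3) within 300 kb of KLF4, and 2 each for H3K4me2 and H3K4me3 within 10 kb, where gained shares over the genome were 15.1%, 13.7% and 2.18%. The H3K27ac region gained within 10 kb was then at KLF9 and no longer at KLF10. The cause of these changes was not tested. The 16 single-gene values followed were those whose groups did not overlap and none had passed the threshold, so leaving out a library could not turn their direction. Of 222 alternatives to them 0 brought a call, and KLF6 H3K27ac reversed to -0.11 at a matched number of peaks. Their sizes moved with the pseudocount. At 1000 bp the H3K27ac difference was 0.86 for KLF10, 0.88 for KLF9, 0.54 for KLF13, 0.38 for KLF7 and 0.31 for KLF6. KLF4 H3K4me3 was then 0.48. At 50 bp KLF10 H3K27ac was 1.80 and KLF4 H3K4me3 0.94. KLF9 H3K27ac was 2.06 with peaks scoring at least 100. Same-numbered libraries deviated together (r = 0.32, 0.27 and 0.25 across genes for H3K27ac, H3K4me2 and H3K4me3), but no label ties a number to a shared culture or day. With the replicate block limma called 410 genes higher for H3K4me2 within 10 kb of a TSS against 0 without, and 59 higher without the trend, where H3K4me3 gave 29 higher and 8 lower. In the 300 kb windows limma called 11415, 5463 and 16 genes higher for H3K27ac, H3K4me2 and H3K4me3, against 6227, 765 and 263 with the replicate block and 4722, 1211 and 2 at a matched number of peaks. As each library was left out these counts ran from 0 to 11481, 744 to 8253 and 0 to 487, and within 10 kb for H3K27ac from 0 to 723. Depth is unknown, so a window at 0 bp shows only that no peak was called.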
